A study of Homo sapiens with 18 samples.

Results

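The difference in the response to hypoxia between the 2 XIST knockdown (KD) lines of OVCAR3-KRAB, sgXIST7 and sgXIST9, was computed for each gene as the log2 ratio of hypoxia to normoxia in sgXIST7 minus the same log2 ratio in sgXIST9. A positive value means that the response was higher in sgXIST7, and a negative value that it was lower. The comparison contrasts 12 of the 18 libraries of the series, 3 in each of 4 groups. All 18 were in the fit that set the spread, so the calls depend on the others too. Of the 28277 genes listed, 14938 had enough counts to be tested. Of the genes tested, 25 were called different, 12 higher and 13 lower.

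OVCAR3 is a cell line long established from an ovarian cancer, and OVCAR3-KRAB cells stably carry dCas9-KRAB, a Cas9 that cannot cut DNA and is fused to a repressor domain. All groups carry this transgene. The groups sgXIST7 normoxia, sgXIST7 hypoxia, sgXIST9 normoxia and sgXIST9 hypoxia are cells with a guide RNA to the XIST promoter, a different site for each guide, left untreated or kept in a chamber at 1% oxygen for 24 h. The remaining 6 libraries are sgControl cells with a control guide, treated in the same 2 ways, and are given beside the comparison. Each line was selected after cloning, so the guide, the amount of XIST left and anything else that set 1 clone apart from the other cannot be told apart. The comparison asks how alike the lines of 2 guides to the same promoter responded to the same treatment.

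Cells answer low oxygen mainly through the hypoxia-inducible factors (HIFs). Prolyl hydroxylases that need oxygen mark the HIF alpha subunits HIF1A and EPAS1 (HIF-2 alpha) for destruction by VHL. In hypoxia the alpha subunits persist, pair with ARNT and switch on genes of glucose uptake, glycolysis, angiogenesis and pH control. The binding site of the pair holds a short core, the hypoxia response element. Because the alpha subunits are set largely at the protein level, their RNA is no measure of HIF activity.

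The knockdown was checked first. XIST had at most 5 counts in each of the 6 sgXIST7 libraries, between 357 and 1009 counts in the 6 sgXIST9 libraries and between 1589 and 11209 counts in the 6 sgControl libraries. XIST was thus low in both lines, but the sgXIST9 libraries still held reads of it and did not overlap with those of sgXIST7. Of 16 markers of Mullerian tissue and ovarian carcinoma, 7 (KRT7, SOX17, CDH1, FOLR1, WFDC2, CLDN3 and MECOM) had 3 counts or fewer in every library of the series. The summed level of the 16 was 345 to 408 CPM, counts scaled to a common library size after TMM normalization, in sgXIST7 normoxia, 460 to 518 in sgXIST7 hypoxia, 440 to 453 in sgXIST9 normoxia and 411 to 435 in sgXIST9 hypoxia. Most of that sum came from EPCAM and KRT18, with means of 226 and 171 CPM over the 12 libraries. PAX8, ESR1 and MSLN had means of 2.61, 1.06 and 0.516 CPM. The sum is thus no measure of Mullerian or ovarian identity. Of 10 leukocyte markers, 6, the defining marker PTPRC among them, were at 3 counts or fewer in all 12 libraries, and the summed level of the 10 was 25.3 to 33.7 CPM in sgXIST7 normoxia, 16.1 to 27.0 in sgXIST7 hypoxia, 37.5 to 56.1 in sgXIST9 normoxia and 15.2 to 25.8 in sgXIST9 hypoxia. Of 8 endothelial markers, 7, PECAM1 and CDH5 among them, were at 3 counts or fewer, and the summed level was under 1 CPM in all 12 libraries. The part of other cells, or of a change in cell state, in the results below was not tested, and in bulk RNA fewer cells of a type cannot be told apart from less RNA per cell.

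Total counts of the 12 libraries ranged from 13483871 to 24906936. The hypoxia library numbered 3 stood farthest from its group mean in each of the 3 lines, with an SD of its deviations over genes of 0.252 to 0.384 on the log2 scale against 0.121 to 0.280 in the other 15 libraries. In sgXIST7 the margin was narrow, 0.252 against 0.242 for hypoxia replicate 1. There, 77 genes were called with hypoxia replicate 1 left out and 15 with hypoxia replicate 3 left out, so replicate 3 did not stand apart clearly. The hypoxia libraries numbered 3 of sgXIST7 and sgXIST9 deviated together (r = 0.57 across genes, which are not independent replicates). They had the lowest totals of their groups, 13483871 and 16208517. Results are therefore also given without the 3 hypoxia libraries numbered 3. That setting was chosen after the data were seen.

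Both lines responded widely to hypoxia. In sgXIST7, 2262 genes rose and 1815 fell in hypoxia, in sgXIST9 2193 rose and 1281 fell, and in sgControl 1681 rose (11.3%) and 1268 fell (8.49%). The call rule was an edgeR adjusted p-value below 0.01 together with a log2 value beyond 1 in either direction. The difference between the responses passed the same threshold for 25 genes, which is 0.167% of the genes tested (0.0803% higher and 0.087% lower). At an adjusted p-value under 0.05 with no limit on the fold, 90 genes were higher (0.602%) and 110 lower (0.736%), 1.34% of those tested. Over all 14938 genes the median log2 difference was -0.05, with an interquartile range of -0.37 to 0.20, while the median SE of a difference was 0.27. Differences of the size that most genes had were therefore within the spread between replicates. SFRP1 and XK had the highest adjusted p-value of the called genes (both 0.00852) and CSRP2 the smallest difference (-1.01), while SPSB4 (log2 difference -3.02, adjusted p = 0.0115) lay just outside the limit on p and CTR9 outside that on the fold (log2 difference 0.88, adjusted p = 0.00504).

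**Figure D1:**
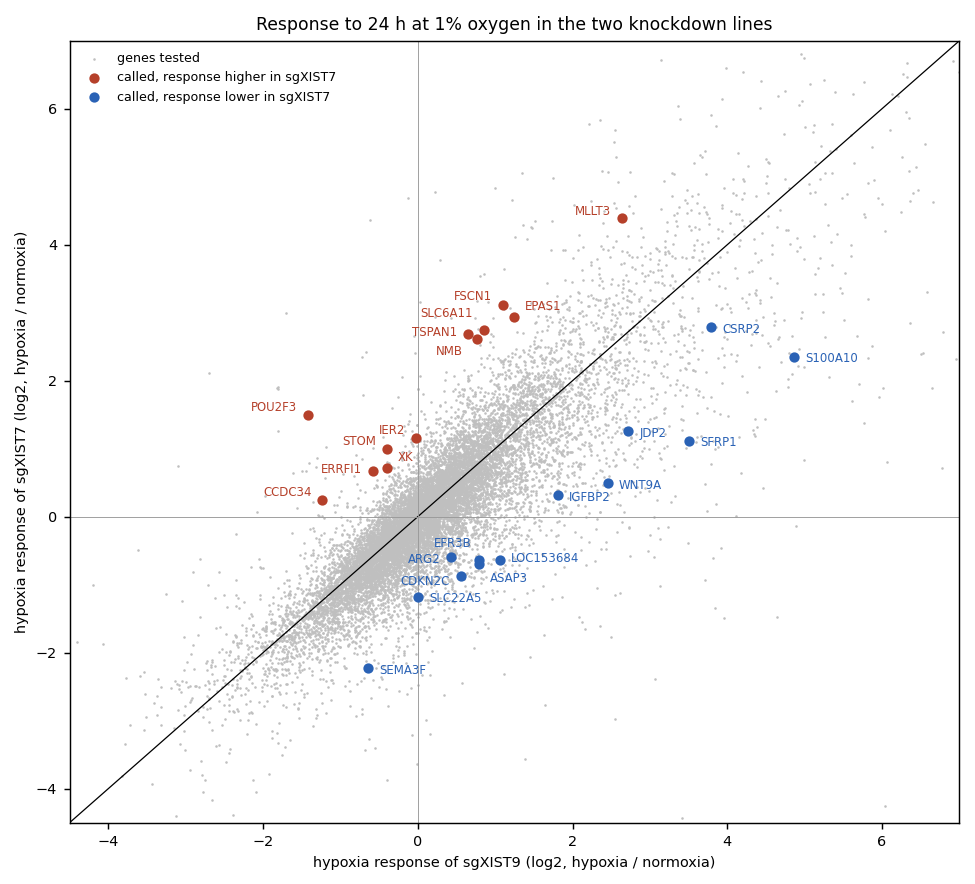
Log2 hypoxia response in sgXIST9 (horizontal) against that in sgXIST7 (vertical) for the genes tested (grey; 47 of 14938 lie outside the axes), with the diagonal of equal response. The 12 genes called higher in sgXIST7 (red) lie above the diagonal and the 13 called lower (blue) below it, and POU2F3 is in the quadrant where sgXIST7 rose and sgXIST9 fell.

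Among the 25 called genes, the 2 responses had the same sign for 13 and opposite signs for 12. Both responses were called as a rise for 7 genes, and POU2F3 was the 1 gene that was called as a rise in sgXIST7 and as a fall in sgXIST9. For 7 genes neither response was itself called, although their difference was. The lines already differed in normoxia for 13 of the 25 genes (9 higher and 4 lower in sgXIST7), against 3.4% of all genes tested (2.09% higher and 1.31% lower), and in hypoxia for 11, against 4.46% (2.06% higher and 2.4% lower). The difference in response is the gap in hypoxia minus the gap in normoxia, so neither of these counts is independent of the call. The gap between the lines was narrower in hypoxia than in normoxia for 14 of the 25 genes, 9 of the 13 lower and 5 of the 12 higher, and for 42.1% of all genes. The response of sgControl lay between those of the 2 lines for 16 genes, below both for 8 and above both for 1, and was nearer to sgXIST7 for 13 and nearer to sgXIST9 for 12. By direction, sgControl was nearer to sgXIST9 for 8 of the 12 genes called higher and nearer to sgXIST7 for 9 of the 13 called lower. In either direction the nearer line was thus more often the one with the lower response.

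Promoters of 4 called genes that hold the core of the hypoxia response element were picked and are printed to show where these letters stand in genes called in either direction, EPAS1 and NMB higher in sgXIST7 and WNT9A and S100A10 lower. Each is the 250 bases before the RefSeq start site in GRCh38.p14, on the strand of the gene. Capitals mark the core of the hypoxia response element, searched as ACGTG and GCGTG on both strands, where matches may overlap.
EPAS1 (chr2:46297157-46297406, plus strand): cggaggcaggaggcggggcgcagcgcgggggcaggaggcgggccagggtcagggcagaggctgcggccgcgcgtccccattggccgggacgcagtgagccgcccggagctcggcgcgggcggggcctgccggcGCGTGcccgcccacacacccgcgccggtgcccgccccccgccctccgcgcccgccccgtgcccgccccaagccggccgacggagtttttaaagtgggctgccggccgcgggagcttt
NMB (chr15:84658200-84658449, minus strand): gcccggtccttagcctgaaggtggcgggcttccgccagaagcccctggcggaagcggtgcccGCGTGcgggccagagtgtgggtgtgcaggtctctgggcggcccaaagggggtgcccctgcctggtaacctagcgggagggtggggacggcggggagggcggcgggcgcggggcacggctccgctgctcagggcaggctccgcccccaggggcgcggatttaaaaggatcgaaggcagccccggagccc
WNT9A (chr1:227947933-227948182, minus strand): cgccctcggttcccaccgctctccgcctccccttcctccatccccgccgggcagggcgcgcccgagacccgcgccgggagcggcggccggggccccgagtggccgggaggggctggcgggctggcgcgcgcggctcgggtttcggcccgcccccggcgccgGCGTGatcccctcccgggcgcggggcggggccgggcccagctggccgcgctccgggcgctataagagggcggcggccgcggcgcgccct
S100A10 (chr1:151993860-151994109, minus strand): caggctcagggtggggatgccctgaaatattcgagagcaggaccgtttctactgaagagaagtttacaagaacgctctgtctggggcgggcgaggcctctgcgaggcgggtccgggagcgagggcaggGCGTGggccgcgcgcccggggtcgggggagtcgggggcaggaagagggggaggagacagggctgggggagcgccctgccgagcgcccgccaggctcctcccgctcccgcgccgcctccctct
RefSeq windows were at hand for 20 of the 25 genes, not for FSCN1, XK, POU2F3, LOC153684 and SFRP1. Of the 30 windows of the 20 genes, 17 (56.7%) held at least 1 core, against 43.2% of all 35116 windows. TGACTCA and TGAGTCA, the AP-1 site, were in 0 of the 30 windows and in 4.20% of all. TGACGTCA, the cAMP response element, was in 1 window, that of ARG2, and in 1.65% of all. These letters describe the windows and are no evidence of binding.

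Transcription factors and chromatin proteins made up 5 of the 25 genes. EPAS1 codes for HIF-2 alpha. It was at 7.13, 10.5 and 6.88 CPM in the 3 sgXIST7 normoxia libraries and at 55.0, 75.5 and 56.1 CPM in those of hypoxia. In sgXIST9, EPAS1 was at 14.1, 13.6 and 14.2 CPM in normoxia and 32.5, 28.2 and 39.0 CPM in hypoxia. Thus sgXIST7 started lower and ended higher, with no overlap between the lines in either condition. Its log2 response was 2.93 in sgXIST7 and 1.25 in sgXIST9, a difference of 1.69 ± 0.27 (SE) (adjusted p = 0.00604). The rise in sgControl, 2.29, lay between them. Reads of the other alpha subunit, HIF1A, went the other way without passing the threshold. HIF1A was at 795, 692 and 783 CPM in sgXIST7 normoxia and 474, 478 and 519 CPM in hypoxia. In sgXIST9, HIF1A was at 226, 223 and 219 CPM and then 189, 182 and 183 CPM. The level was higher in every sgXIST7 library than in any sgXIST9 library (log2 1.76 in normoxia, adjusted p = 3.17e-10), while the responses differed by -0.36 ± 0.12 (SE) (adjusted p = 0.152). Of the 10 members of the HIF system that were tested, EPAS1 was the only call, against 0.0803% of all genes called higher.

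MLLT3 codes for AF9, a reader of acylated histones in complexes that promote transcript elongation. In sgXIST7, MLLT3 was at 1.56, 1.67 and 1.22 CPM in normoxia and 24.7, 30.8 and 37.6 CPM in hypoxia. In sgXIST9, MLLT3 was at 6.204, 6.69 and 5.43 CPM and then 35.6, 35.1 and 43.5 CPM. The lines stood apart in normoxia and nearly met in hypoxia, where the highest sgXIST7 library lay within the range of sgXIST9. The rise was 4.39 against 2.64 on the log2 scale, a difference of 1.75 ± 0.26 (SE) (adjusted p = 0.00541), and sgControl rose by 4.07.

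POU2F3, a POU domain factor known for tuft cell identity, had the largest positive difference of the called genes. It was at 13.0, 7.997 and 9.54 CPM in sgXIST7 normoxia and rose to 25.5, 34.4 and 26.5 CPM. In sgXIST9, POU2F3 fell from 6.61, 4.99 and 4.03 CPM to 2.05, 1.951 and 1.83 CPM. The lines did not overlap in normoxia and moved apart in hypoxia, from a 1.947-fold to a 14.8-fold higher level in sgXIST7. The difference in response was 2.92 ± 0.36 (SE) (adjusted p = 0.000958). sgControl was at 3.15, 1.62 and 1.89 CPM and then 1.31, 0.992 and 0.709 CPM, a fall of the same direction as in sgXIST9. The call was kept when each of the 18 libraries was left out in turn, as it was for SLC6A11, NMB, STOM, ERRFI1 and SEMA3F, while FSCN1 kept its call in 17 of these 18 fits and the other 18 genes in 3 (SFRP1) to 12 (S100A10). With every library of replicate 1 or of replicate 2 left out, no gene was called, these included (lowest adjusted p = 0.0479 and 0.0999).

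IER2 is an immediate early gene, and JDP2 is a repressor of the AP-1 family. IER2 was at 39.2, 31.7 and 37.0 CPM in sgXIST7 normoxia and at 79.6, 83.8 and 77.2 CPM in hypoxia. In sgXIST9, IER2 was at 47.3, 57.1 and 55.5 CPM and then 51.2, 54.7 and 51.9 CPM, with overlapping libraries. Thus IER2 rose in sgXIST7 (log2 1.16), while the values of sgXIST9 (-0.02) and sgControl (0.03) were near 0, and the lines differed by 1.17 ± 0.19 (SE) (adjusted p = 0.00604). JDP2 was at 9.77, 8.77 and 10.2 CPM and rose to 20.8, 19.9 and 28.3 CPM in sgXIST7. In sgXIST9, JDP2 rose from 2.01, 2.12 and 1.58 CPM to 11.6, 12.2 and 14.1 CPM. Each sgXIST7 library lay above each sgXIST9 library of the same condition, and the smaller rise was that of the line with the higher level (1.26 against 2.72, difference -1.47 ± 0.23 (SE), adjusted p = 0.00604).

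**Figure D2:**
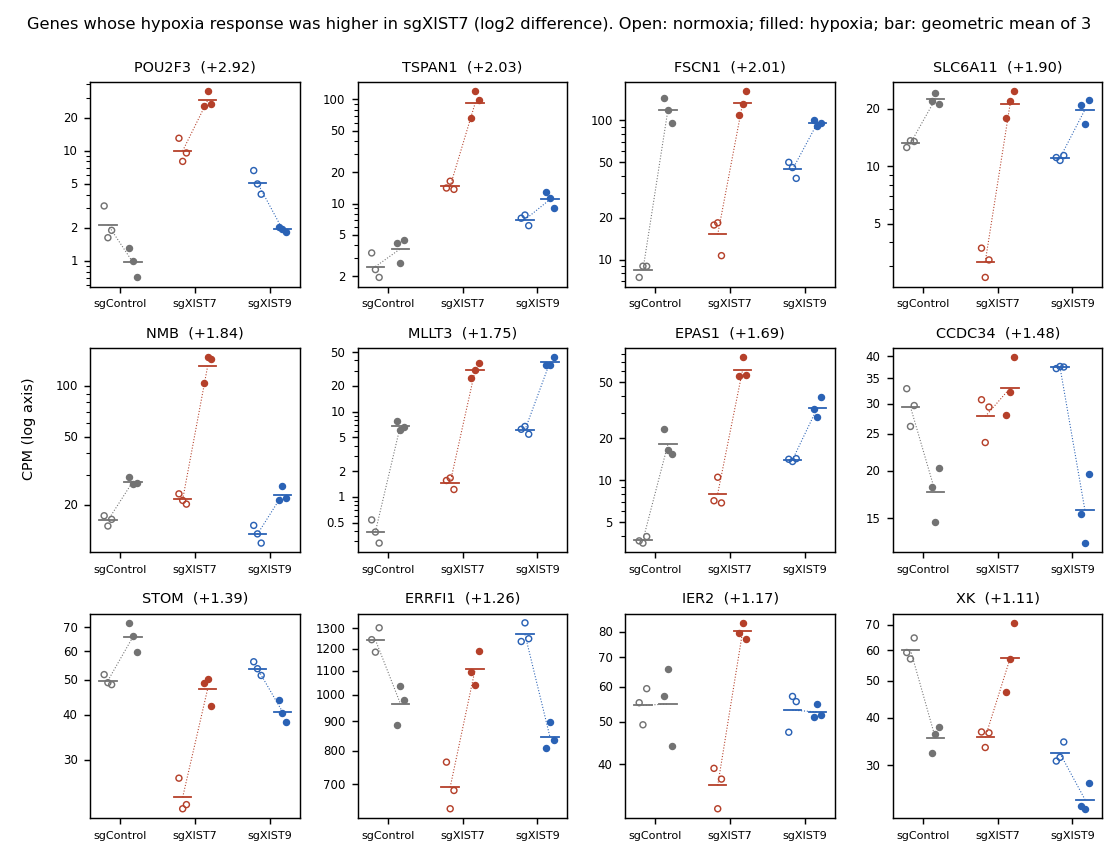
CPM per library, on a log axis, of the 12 genes whose hypoxia response was higher in sgXIST7, in sgControl (grey), sgXIST7 (red) and sgXIST9 (blue), with normoxia as open and hypoxia as filled points and a bar at the geometric mean of 3 libraries. In parentheses is the log2 difference in response, from 2.92 for POU2F3 to 1.11 for XK.

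Signalling proteins and their modulators, 6 genes, were called in both directions. NMB codes for neuromedin B, a peptide of the bombesin family. NMB was at 23.2, 21.2 and 20.2 CPM in sgXIST7 normoxia and 104, 147 and 144 CPM in hypoxia. In sgXIST9, NMB was at 15.1, 13.5 and 11.9 CPM and then 21.4, 25.8 and 21.8 CPM. The hypoxia libraries of sgXIST7 stood far above every other library, and the level in hypoxia was 6.10-fold that of normoxia in sgXIST7 and 1.70-fold in sgXIST9. The log2 difference was 1.84 ± 0.19 (SE) (adjusted p = 0.000296), and the value of sgControl (0.75) was close to that of sgXIST9 (0.77). SEMA3F codes for a secreted semaphorin that binds neuropilins. In sgXIST7, SEMA3F fell from 32.3, 29.5 and 27.9 CPM to 6.78, 6.30 and 5.96 CPM. In sgXIST9, SEMA3F was at 8.35, 7.38 and 7.30 CPM in normoxia and at 4.51, 4.58 and 5.74 CPM in hypoxia. The high level of sgXIST7 in normoxia was all but gone in hypoxia, where both lines lay between 4.51 and 6.78 CPM. The log2 difference was -1.59 ± 0.21 (SE) (adjusted p = 0.00151), with -0.78 in sgControl.

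WNT9A, a Wnt ligand, and SFRP1, a secreted antagonist of Wnt ligands, were both called lower in sgXIST7. WNT9A was at 5.19, 6.44 and 5.88 CPM in sgXIST7 normoxia and 7.45, 8.16 and 8.98 CPM in hypoxia. In sgXIST9, WNT9A rose from 0.893, 0.797 and 0.934 CPM to 4.79, 5.81 and 3.85 CPM. The line that was low in normoxia came near to the other in hypoxia without overlap. Responses were 0.49 and 2.46, a difference of -1.97 ± 0.30 (SE) (adjusted p = 0.00556), and sgControl rose by 2.37. SFRP1 rose from 5.75, 6.16 and 5.75 CPM to 12.4, 12.3 and 13.6 CPM in sgXIST7. In sgXIST9, SFRP1 rose from 0.357, 0.85 and 0.818 CPM to 9.43, 9.08 and 4.10 CPM, the last being the library numbered 3. All sgXIST7 libraries lay above those of sgXIST9 in the same condition, and the log2 difference was -2.39 ± 0.40 (SE) (adjusted p = 0.00852). Without the hypoxia libraries numbered 3 it was -2.73, the largest shift among the called genes. SFRP1 in sgControl was at 13.8, 17.3 and 15.9 CPM in normoxia and 19.3, 16.7 and 17.4 CPM in hypoxia (log2 0.18). Of 20 Wnt pathway genes tested, 2 were called lower and 0 higher, against 0.087% and 0.0803% of all genes. The value was positive for 5 and negative for 15, while 44.1% of all genes had a positive value. At an unadjusted p-value under 0.05, 7 were lower (35%, against 9.39% of all genes) and 1 higher (5%, against 6.69%). Of the lower ones, WNT4 and WNT7B had few counts. They had 2 and 0 counts over the sgXIST9 normoxia libraries and 15 and 3 over those of sgXIST7 normoxia. The list mixes ligands and antagonists, so these counts give no direction of Wnt signalling. Without the libraries numbered 3, the calls of the list were again WNT9A and SFRP1, against 1.08% of all genes called lower.

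IGFBP2, which binds insulin-like growth factors, was at 28.1, 27.2 and 25.1 CPM in sgXIST7 normoxia and 31.2, 31.9 and 36.9 CPM in hypoxia. In sgXIST9, IGFBP2 rose from 2.37, 2.76 and 2.22 CPM to 9.39, 9.44 and 6.94 CPM. The level stayed higher in each sgXIST7 library than in any of sgXIST9, and the difference in response was -1.50 ± 0.23 (SE) (adjusted p = 0.00541). ERRFI1 codes for MIG6, a feedback inhibitor of the EGF receptor family, and was the most abundant of the called genes in counts. It was at 765, 635 and 683 CPM in sgXIST7 normoxia and 1094, 1038 and 1189 CPM in hypoxia. In sgXIST9, ERRFI1 was at 1235, 1329 and 1248 CPM and then 808, 896 and 836 CPM. The order of the lines turned round, each time without overlap. Neither response passed the fold threshold (0.67 and -0.59), but their difference of 1.26 ± 0.14 (SE) did (adjusted p = 0.000296), and sgControl (-0.36) had the sign of sgXIST9.

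Membrane proteins and transporters formed another group of 5 genes. TSPAN1, a tetraspanin, was at 14.1, 16.4 and 13.7 CPM in sgXIST7 normoxia and 67.0, 119 and 97.7 CPM in hypoxia. In sgXIST9, TSPAN1 was at 7.23, 7.76 and 6.13 CPM and then 12.9, 11.2 and 9.09 CPM. The lines did not overlap in either condition and their gap grew from 2.09-fold to 8.53-fold, with a log2 difference in response of 2.03 ± 0.31 (SE) (adjusted p = 0.00556). SLC6A11, a transporter of the neurotransmitter GABA, was at 3.72, 2.61 and 3.22 CPM in sgXIST7 normoxia and 17.8, 22.1 and 24.7 CPM in hypoxia. In sgXIST9, SLC6A11 was at 11.1, 10.7 and 11.4 CPM and then 21.0, 16.7 and 22.3 CPM. Here the gap closed, since the hypoxia libraries of the 2 lines overlapped, and sgControl reached a like level (22.1, 24.3 and 21.4 CPM). Responses of 2.75 and 0.85 gave a difference of 1.90 ± 0.22 (SE) (adjusted p = 0.000487). STOM codes for stomatin, a scaffold of the plasma membrane. In sgXIST7, STOM was at 26.7, 21.9 and 22.5 CPM in normoxia and 49.1, 50.4 and 42.4 CPM in hypoxia. In sgXIST9, STOM was at 56.1, 53.7 and 51.4 CPM and then 44.1, 40.4 and 38.2 CPM. The lines were apart in normoxia and overlapped in hypoxia, with a difference in response of 1.39 ± 0.15 (SE) (adjusted p = 0.000296).

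XK is an X-linked membrane protein of red cells and other tissues. It was the 1 call among the 490 X-linked genes tested, against 25 of all 14938 genes (0.167%). XK was at 36.7, 33.4 and 36.5 CPM in sgXIST7 normoxia and 46.6, 57.0 and 70.9 CPM in hypoxia. In sgXIST9, XK was at 30.8, 31.4 and 34.5 CPM and then 23.4, 23.1 and 26.9 CPM. Normoxia libraries overlapped, hypoxia libraries did not, and the difference in response was 1.11 ± 0.18 (SE) (adjusted p = 0.00852). SLC22A5, the carnitine transporter of the plasma membrane, was at 15.7, 16.9 and 18.7 CPM in sgXIST7 normoxia and fell to 7.41, 7.61 and 7.68 CPM. In sgXIST9, SLC22A5 was at 19.0, 16.1 and 17.1 CPM and then 16.1, 18.02 and 18.3 CPM. Again the lines overlapped in normoxia and not in hypoxia (difference -1.18 ± 0.19 (SE), adjusted p = 0.0067). The sgControl value was -0.22, between -1.18 in sgXIST7 and 0.01 in sgXIST9.

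Proteins of the cytoskeleton and the cell cortex made up a further 5. S100A10, the partner of annexin A2, had the largest negative difference of the called genes. In sgXIST7, S100A10 rose from 47.3, 34.9 and 23.0 CPM to 189.6, 185 and 161 CPM. In sgXIST9, S100A10 rose from 1.70, 1.49 and 1.58 CPM to 47.7, 34.9 and 57.1 CPM. The low start of sgXIST9 set the lines 21.96-fold apart in normoxia and 3.84-fold in hypoxia, in both cases without overlap. The rise was 2.35 against 4.86 on the log2 scale, the difference -2.51 ± 0.36 (SE) (adjusted p = 0.00374), and the rise in sgControl 3.27. FSCN1 codes for fascin, which bundles actin in filopodia. In sgXIST7, FSCN1 rose from 17.7, 18.4 and 10.7 CPM to 110.2, 132 and 162 CPM. In sgXIST9, FSCN1 rose from 50.03, 45.9 and 38.4 CPM to 101, 91.1 and 95.7 CPM. The lines differed most in where they started, and every sgXIST7 hypoxia library lay above those of sgXIST9. FSCN1 was the gene whose rise in sgControl (3.83) exceeded both 3.11 in sgXIST7 and 1.10 in sgXIST9, whose difference was 2.01 ± 0.27 (SE) (adjusted p = 0.00227). The call of FSCN1 was lost with sgXIST9 normoxia replicate 1 left out.

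CSRP2, a LIM domain protein of actin filaments, rose in both lines, from 10.6, 10.2 and 10.6 CPM to 74.3, 68.9 and 73.1 CPM in sgXIST7. In sgXIST9, CSRP2 rose from 3.62, 3.19 and 2.92 CPM to 44.9, 43.7 and 47.0 CPM. The level was higher in each sgXIST7 library, the rise was larger in sgXIST9, and the difference of -1.01 ± 0.15 (SE) (adjusted p = 0.00541) was at the edge of the fold threshold. Without the hypoxia libraries numbered 3 it was -0.98 and not called, as the only one of the 25. ASAP3, which turns off ARF GTPases, was at 19.2, 25.8 and 19.5 CPM in sgXIST7 normoxia and 15.6, 14.5 and 9.50 CPM in hypoxia. In sgXIST9, ASAP3 was at 11.96, 10.3 and 10.9 CPM and then 19.8, 16.5 and 21.0 CPM, so the order of the lines turned round (difference -1.48 ± 0.24 (SE), adjusted p = 0.00798). EFR3B, which anchors a lipid kinase complex at the plasma membrane, was at 19.8, 19.7 and 21.0 CPM in sgXIST7 normoxia and 11.7, 12.3 and 15.1 CPM in hypoxia. In sgXIST9, EFR3B was at 20.2, 17.7 and 19.6 CPM and then 32.0, 30.6 and 37.2 CPM. The lines overlapped in normoxia and were apart in hypoxia (-1.43 ± 0.22 (SE), adjusted p = 0.00597), and EFR3B fell in sgControl (-1.30).

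**Figure D3:**
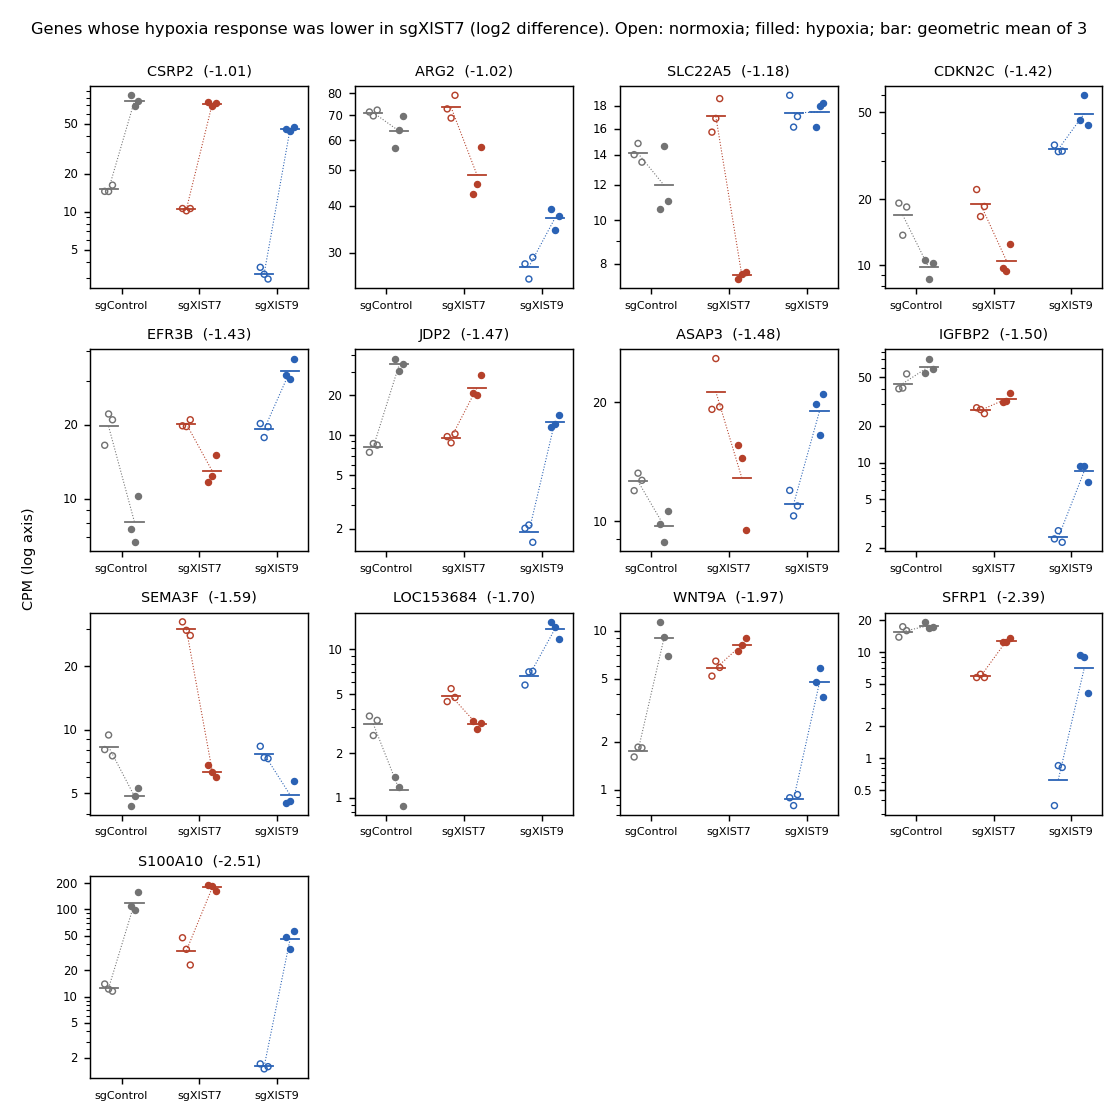
CPM per library, on a log axis, of the 13 genes whose hypoxia response was lower in sgXIST7, drawn as for the genes that were higher. In parentheses is the log2 difference in response, from -1.01 for CSRP2 to -2.51 for S100A10, and for S100A10, IGFBP2, SFRP1, WNT9A, JDP2, ARG2 and CSRP2 the open blue points of sgXIST9 normoxia are the lowest of the panel.

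The remaining 4 calls have other roles. CDKN2C, an inhibitor of the kinases CDK4 and CDK6, was at 22.1, 16.7 and 18.5 CPM in sgXIST7 normoxia and 9.70, 9.42 and 12.5 CPM in hypoxia. In sgXIST9, CDKN2C was at 35.4, 33.0 and 33.2 CPM and then 45.8, 59.7 and 43.7 CPM. The lines did not overlap and their gap widened in hypoxia, where sgXIST7 lay with sgControl (10.6, 8.63 and 10.2 CPM). The difference in response was -1.42 ± 0.23 (SE) (adjusted p = 0.0067). ARG2, the arginase of mitochondria, was at 72.7, 68.7 and 79.0 CPM and then 43.0, 45.9 and 57.3 CPM in sgXIST7. In sgXIST9, ARG2 was at 28.0, 25.5 and 29.1 CPM and then 39.2, 34.4 and 37.7 CPM, so that the gap of the lines shrank without overlap (-1.02 ± 0.16 (SE), adjusted p = 0.00604). CCDC34, a coiled-coil protein, was at 30.7, 23.7 and 29.4 CPM and then 28.0, 32.2 and 39.8 CPM in sgXIST7. In sgXIST9, CCDC34 fell from 37.1, 37.6 and 37.5 CPM to 15.4, 12.9 and 19.6 CPM (1.48 ± 0.24 (SE), adjusted p = 0.00647). LOC153684, an uncharacterized locus, was at 4.45, 5.44 and 4.75 CPM and then 3.30, 2.90 and 3.19 CPM in sgXIST7. In sgXIST9, LOC153684 rose from 5.76, 7.07 and 7.12 CPM to 15.4, 14.2 and 11.8 CPM (-1.70 ± 0.26 (SE), adjusted p = 0.00556), while it fell in sgControl (-1.44).

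**Figure D4:**
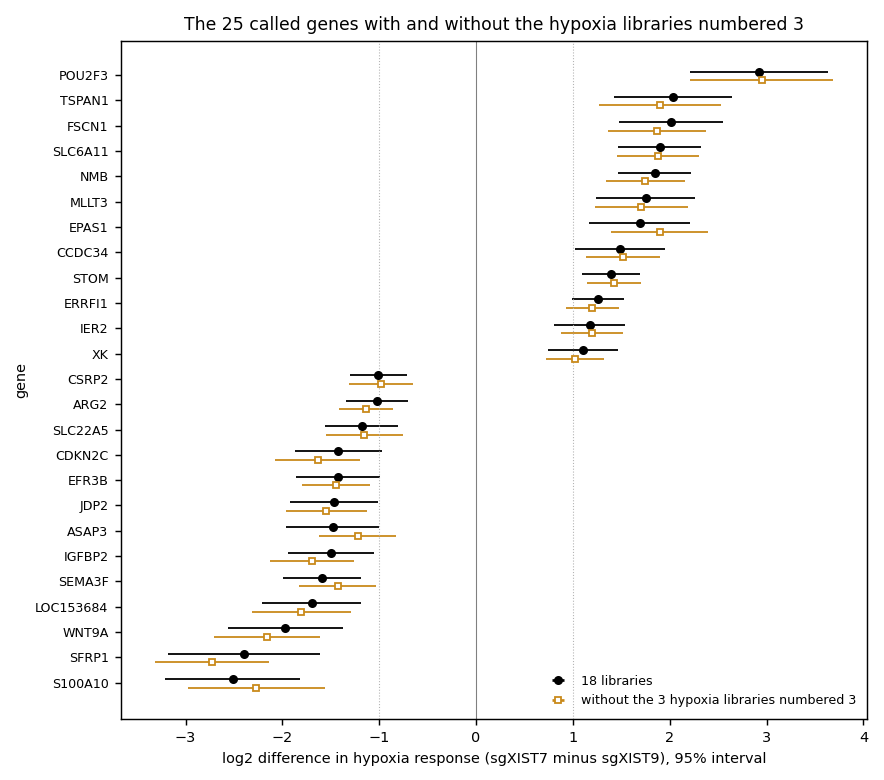
Log2 difference in hypoxia response of the 25 called genes, with 95% intervals (normal approximation), in the fit of 18 libraries (black circles) and without the 3 hypoxia libraries numbered 3 (open squares). All 25 kept their sign, and the largest shift was that of SFRP1, from -2.39 to -2.73.

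Without the 3 hypoxia libraries numbered 3, 289 of 15278 genes were called, 124 higher (0.812%) and 165 lower (1.08%), and 24 of the 25 genes were among them. The common dispersion of that fit was 0.0161, against 0.0321 with all libraries. The 25 genes moved by a median of 0.10 on the log2 scale. Groups of genes are described below in both fits.

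Genes that HIF is known to induce rose in both lines. Of 29 tested, 28 rose in sgXIST7, against 15.1% of all genes, and 27 in sgXIST9, against 14.7%, with median log2 responses of 3.62 and 3.30, against 0.01 and 0.09 for all genes. In the difference 0 were called by edgeR and 0 by DESeq2, 6 had an unadjusted p-value under 0.05 (3 higher, 10.3% against 6.69% of all genes, and 3 lower, 10.3% against 9.39%), and the median was 0.28 against -0.05 for all genes. BNIP3, a mitophagy receptor, had a difference of 0.34 ± 0.26 (SE), P4HA1, a collagen hydroxylase, of -0.48 ± 0.26 (SE), and EGLN1, the oxygen sensor PHD2, of 0.14 ± 0.16 (SE). NDRG1, a stress response gene, came nearest to a call (-1.26 ± 0.30 (SE), adjusted p = 0.0463). Without the libraries numbered 3, CA12, a carbonic anhydrase, and VEGFA, the angiogenic growth factor, were called higher in sgXIST7. The same fit called 0.812% of all genes higher. VEGFA was at 27.5, 28.9 and 28.5 CPM in sgXIST7 normoxia and 209, 316 and 378 CPM in hypoxia. In sgXIST9, VEGFA was at 23.4, 27.2 and 27.9 CPM and then 133, 102 and 239 CPM, where replicate 3 lay above the lowest sgXIST7 hypoxia library. Its difference was 0.82 ± 0.38 (SE) in all libraries (adjusted p = 0.294) and 1.05 without those numbered 3 (adjusted p = 0.00688). Of 24 genes of glycolysis and glycogen, 20 rose in sgXIST7 and 19 in sgXIST9. Their differences were positive for 21 of 24, against 44.1% of all genes, with a median of 0.33 and 0 calls by either tool. At an unadjusted p-value under 0.05, 6 were higher (25%) and 0 lower, against 6.69% and 9.39% of all genes. Without the libraries numbered 3 the median was 0.37 and GBE1, the glycogen branching enzyme, was called higher, against 0.812% of all genes. GAPDH, for example, had a difference of 0.48 ± 0.22 (SE) (adjusted p = 0.298).

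Immediate early genes, which cells switch on within minutes of a stimulus, had the highest median difference of the lists with 10 or more members tested, 1.06. Of 24 tested, 19 had a positive value, against 44.1% of all genes. IER2 was called higher, as were 0.0803% of all genes. At an unadjusted p-value under 0.05, 12 were higher and 1 lower, 50% and 4.17% of the list, against 6.69% and 9.39% of all genes. DESeq2 called 5 higher and 1 lower, against 0.604% and 0.597% of all genes it tested. In hypoxia 17 of the 24 rose in sgXIST7 (15.1% of all genes rose) and 13 in sgXIST9 (14.7%), 11 of them in both. FOS was at 2.38, 1.999 and 2.09 CPM in sgXIST7 normoxia and 29.9, 43.1 and 41.2 CPM in hypoxia. In sgXIST9, FOS was at 1.92, 2.18 and 2.28 CPM and then 13.7, 14.7 and 13.4 CPM. The lines overlapped in normoxia and stood apart in hypoxia, with a difference of 1.42 ± 0.29 (SE) (adjusted p = 0.0216). FOSL1, which codes for the AP-1 subunit FRA1, was at 21.7, 16.8 and 17.4 CPM and then 17.6, 30.4 and 35.5 CPM in sgXIST7. In sgXIST9, FOSL1 fell from 34.9, 42.1 and 34.9 CPM to 14.4, 12.3 and 22.2 CPM (1.77 ± 0.33 (SE), adjusted p = 0.015). FOSL2, which codes for the AP-1 subunit FRA2, went the other way (-1.27 ± 0.28 (SE), adjusted p = 0.0327). Without the libraries numbered 3, 6 of the 24 were called higher, FOS, FOSL1, JUNB, EGR1, EGR3 and IER2, and 0 lower. Of all genes in that fit, 0.812% were called higher and 1.08% lower. EGR1, a zinc finger factor, was at 29.8, 69.3 and 52.7 CPM in sgXIST7 hypoxia and 17.9, 11.9 and 39.8 CPM in sgXIST9 hypoxia, the last value of each being replicate 3, so that the lines overlapped only through sgXIST9 replicate 3 and sgXIST7 replicate 1.

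Interferon-stimulated genes had a negative value for 29 of 31, against 8341 of all 14938 genes. Calls were 0 by edgeR and 1, lower, by DESeq2, but 16 of the 31 (51.6%) had a negative difference at an unadjusted p-value under 0.05 and 0 a positive one, against 9.39% and 6.69% of all genes, and the median was -0.65. Without the libraries numbered 3, 6 were called lower, OASL, DDX58, USP18, XAF1, SAMD9 and SAMD9L, against 1.08% of all genes. DDX58, the RNA sensor RIG-I, was at 13.7, 13.8 and 11.2 CPM in sgXIST7 normoxia and 29.4, 26.0 and 10.3 CPM in hypoxia. In sgXIST9, DDX58 was at 9.95, 9.24 and 11.7 CPM and then 48.1, 55.0 and 27.6 CPM. In each line replicate 3 was the lowest hypoxia library, and in sgXIST7 it was below all 3 normoxia libraries. XAF1, a gene of apoptosis control, was at 12.8, 10.8 and 11.9 CPM and then 8.07, 5.71 and 4.14 CPM in sgXIST7. In sgXIST9, XAF1 was at 14.1, 11.1 and 14.1 CPM and then 15.9, 18.2 and 10.98 CPM, above all sgXIST7 hypoxia libraries. DTX3L, a ubiquitin ligase and among the 3 most highly expressed of the list, had a difference of -0.65 ± 0.22 (SE) (adjusted p = 0.153).

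Genes of cholesterol and fatty acid synthesis had a negative difference for 29 of 31, against 8341 of all 14938 genes. Their median was -0.53. Calls were 0 by edgeR and by DESeq2, and 15 (48.4%, against 9.39% of all genes) were lower and 1 (ACLY, 3.23% against 6.69%) higher at an unadjusted p-value under 0.05. Their median response was -0.32 in sgXIST7, 0.15 in sgXIST9 and 0.26 in sgControl. FASN, the fatty acid synthase, had a response of -1.88 in sgXIST7 and -0.89 in sgXIST9, a difference of -0.99 ± 0.36 (SE) (adjusted p = 0.189), and SCD, the stearoyl-CoA desaturase, one of -0.35 ± 0.27 (SE). MVD, an enzyme of the mevalonate pathway, was called lower without the libraries numbered 3, against 1.08% of all genes in that fit. It was at 39.8, 46.1 and 44.3 CPM in sgXIST7 normoxia and 21.1, 17.9 and 22.1 CPM in hypoxia. In sgXIST9, MVD was at 22.1, 23.9 and 23.1 CPM and then 20.4, 24.0 and 15.8 CPM, so that the gap of normoxia closed.

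Collagen genes were negative for 23 of 28, against 8341 of all 14938 genes, with a median of -0.70. They held 0 calls by edgeR and 1 by DESeq2 (COL5A1, lower). At an unadjusted p-value under 0.05, 11 (39.3%, against 9.39% of all genes) were lower and 1 (COL1A2, 3.57% against 6.69%) higher. COL5A1, a chain of fibrillar collagen V, was at 20.3, 34.0 and 18.7 CPM in sgXIST7 normoxia and 27.4, 23.3 and 29.8 CPM in hypoxia. In sgXIST9, COL5A1 rose from 1.92, 2.02 and 2.16 CPM to 9.71, 6.81 and 5.996 CPM. All sgXIST7 libraries were above all sgXIST9 libraries, and the difference in response, -1.75 ± 0.32 (SE), missed the threshold (adjusted p = 0.0148) and passed it without the libraries numbered 3. COL6A3, which forms collagen VI, had a difference of -0.59 ± 0.42 (SE). In the TGF-beta and BMP list, 18 of 21 values were negative, against 8341 of all 14938 genes. BMP7, a BMP ligand, had a difference of -1.78 ± 0.40 (SE) (adjusted p = 0.0357). Calls of the list were 0 by edgeR and 1 higher and 1 lower by DESeq2, against 0.604% and 0.597% of all genes it tested. At an unadjusted p-value under 0.05, 1 was higher (4.76%, against 6.69% of all genes) and 6 lower (28.6%, against 9.39%). Summed fibroblast markers, which hold collagens COL1A1, COL1A2 and COL3A1, ranged from 1129 to 1204 CPM in sgXIST7 normoxia, 886 to 1297 in sgXIST7 hypoxia, 654 to 716 in sgXIST9 normoxia and 444 to 707 in sgXIST9 hypoxia. LUM was at 3 counts or fewer in all 12. The part of other cells in these values was not tested.

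**Figure D5:**
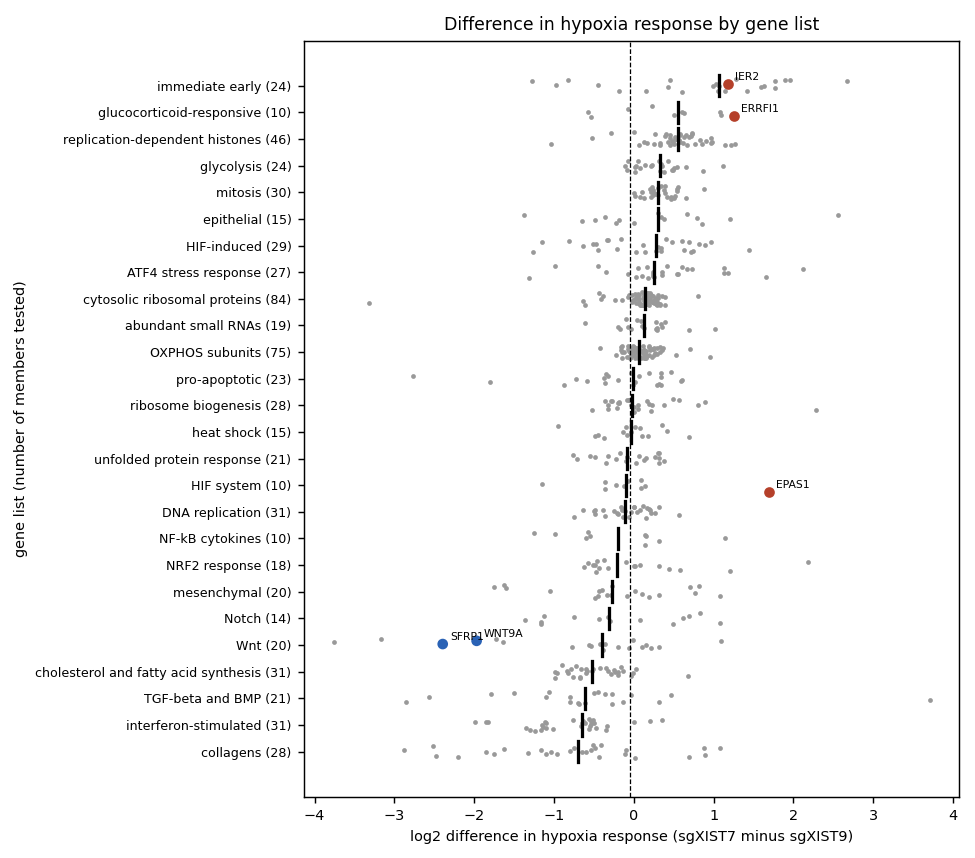
Log2 difference in hypoxia response of each tested member (points) of the gene lists with 10 or more members tested, with the list median (black bar) and the median of all genes (dashed line at -0.05). Red and blue points are the members called, IER2, ERRFI1 and EPAS1 higher and SFRP1 and WNT9A lower, and the medians run from 1.06 for immediate early genes to -0.70 for collagens.

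Genes of proliferation mostly fell in both lines. All 30 genes of mitosis fell in both sgXIST7 (12.2% of all genes fell) and sgXIST9 (8.58%), with median log2 responses of -2.06 and -2.28. The differences were positive for 29 of 30, against 44.1% of all genes, with a median of 0.30 and 0 calls by edgeR or DESeq2. At an unadjusted p-value under 0.05, 4 genes were higher (13.3%) and 0 lower, against 6.69% and 9.39% of all genes. Without the libraries numbered 3 the median was 0.10, with 24 of 30 positive. Of 31 genes of DNA replication, 27 fell in each line, and their differences had a median of -0.11, with 12 positive and 19 negative. Calls were 0 by edgeR and by DESeq2. At an unadjusted p-value under 0.05, 0 were higher and 3 lower (9.68%), against 6.69% and 9.39% of all genes. The median of these genes was -0.19 without the libraries numbered 3. In the mitosis list, CENPF, a kinetochore protein, had a difference of 0.51 ± 0.25 (SE) (adjusted p = 0.32). Replication-dependent histone genes had a median of 0.55, against -0.05 for all genes, with 0 calls by edgeR and 1 by DESeq2 (H1-2, higher). At an unadjusted p-value under 0.05, 12 of 46 were higher (26.1%) and 0 lower, against 6.69% and 9.39% of all genes. Their median was 0.29 without the libraries numbered 3. Genes of similar sequence share reads in this family, and their values are uncertain for that reason. Ribosomal protein genes (median 0.14, 84 tested) and subunits of oxidative phosphorylation (median 0.06, 75 tested) had medians near 0, and the sign of the latter turned under upper-quartile scaling (-0.001). For the markers that the study followed, the difference of NES, the stem cell marker nestin, was -0.34 ± 0.38 (SE) (adjusted p = 0.717). Of 7 such markers tested, 0 were called by edgeR or DESeq2, and 0 had an unadjusted p-value under 0.05. The lowest unadjusted p-value of edgeR was 0.056, just over that limit. Several of the markers had few counts in normoxia, XIST among them, with at most 5 in each sgXIST7 library. The lack of a call is thus no measure of how alike the lines were in these markers.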

How the data were processed

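RNA was sequenced with a TruSeq Stranded Total RNA kit in 3 biological replicates of each of 6 groups. Per the labels and the study's methods, the authors trimmed reads with Trimmomatic, checked them with FastQC, aligned them to hg38 with HISAT2, counted them with featureCounts and tested them with DESeq2. The authors deposited raw counts in 1 table of 28279 lines, of which 2 were broken and left out. The strand setting of the counting is not given in the sources used here, so overlapping and antisense genes are uncertain.

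Groups come from the GEO labels. Counts of all 18 libraries were fitted in 1 model of 6 groups with the quasi-likelihood test of edgeR 4.0.16 (robust, TMM scaling, R 4.3.3) after filterByExpr (minimum count 10, minimum total 15), with Benjamini-Hochberg adjustment over 14938 genes and the call rule given above. All p-values are from edgeR unless DESeq2 1.42.0 is named, and they measure the spread between replicates of 1 line each. The fit was tested on simulated counts in which libraries vary independently, so that test does not cover libraries that deviate together. Totals of 11794375 to 24906936 counts set the precision, and 3 counts were taken as the floor of detection.

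The comparison and the 33 gene lists were chosen with earlier results of these data known. Genes were named by rule: up to 15 called in each direction with the largest difference and a mean of at least 100 counts, those called in opposite directions in the lines, called list members, the 3 most expressed members of each list, and markers the study followed. SPSB4, CTR9, NDRG1, CA12, VEGFA, COL5A1, BMP7, MVD, GBE1, FOS, FOSL1, EGR1, EGR3, OASL, DDX58, USP18, XAF1, SAMD9 and SAMD9L fall outside it and were chosen after their values were seen. Alternatives were other scalings, filters and thresholds, DESeq2, fewer samples, a replicate block, and leaving out each library or replicate number. Values of 1 further gene are not reported here.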

Additional observations from a re-analysis of the deposited data

Results flagged for a closer look

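The hypoxia responses of the 2 lines differed by the test of the difference itself for 25 genes, and each is given as its log2 difference, sgXIST7 minus sgXIST9. Among transcription factors and chromatin proteins these were POU2F3 (2.92), MLLT3 (1.75), EPAS1 (1.69), IER2 (1.17) and JDP2 (-1.47). Among signalling proteins and their modulators they were NMB (1.84), ERRFI1 (1.26), IGFBP2 (-1.50), SEMA3F (-1.59), WNT9A (-1.97) and SFRP1 (-2.39). Membrane proteins and transporters gave TSPAN1 (2.03), SLC6A11 (1.90), STOM (1.39), XK (1.11) and SLC22A5 (-1.18). Proteins of the cytoskeleton and cell cortex gave FSCN1 (2.01), CSRP2 (-1.01), EFR3B (-1.43), ASAP3 (-1.48) and S100A10 (-2.51). The remaining 4 were CCDC34 (1.48), ARG2 (-1.02), CDKN2C (-1.42) and LOC153684 (-1.70). The lines differ in guide, clone and remaining XIST, which cannot be told apart.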

How the results depend on the processing

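The difference in response was called for 12 genes higher and 13 lower. It was called for 78 and 77 by DESeq2, which held 23 of the 25, for 22 higher and 17 lower with no filter, for 10 and 5 in a fit of the 4 sgXIST groups alone, for 54 and 76 at an adjusted p-value under 0.05 with the fold limit and for 90 and 110 without it. Median-of-ratios and upper-quartile scaling, a filter at a mean of 1 CPM and leaving out abundant small RNAs kept both counts within 1.5 times. After the data were seen, 2 more settings were added. Without the 3 hypoxia libraries numbered 3 the counts were 124 and 165, and with the replicate number as a block among hypoxia libraries alone 96 and 142. Replicate numbers are shared by the groups of the labels, but the same-numbered libraries do not deviate together throughout: of 18 pairs, correlations ran from -0.14 to 0.57 and 6 were over 0.1, and 9 of 12 libraries correlated best with their own number. With the replicate block the counts were 28 and 28.

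Leaving out 1 library, or every library of 1 number, gave 0 to 66 genes higher and 0 to 62 lower. The counts of 0 came without replicate 1 and without replicate 2 (1347 and 1043 genes at an unadjusted p-value under 0.05), and without replicate 3 there were 25 and 34. Of single libraries, sgXIST9 hypoxia replicate 3 moved the total most (128 calls), followed by sgControl hypoxia replicate 3 (80) and sgXIST7 hypoxia replicate 1 (77), and the fewest calls came without sgXIST9 normoxia replicate 1 (6). In the same way the response of sgXIST7 ranged over 1740 to 2267 genes higher and 1427 to 1901 lower, that of sgXIST9 over 1252 to 2290 and 912 to 1274, and that of sgControl over 859 to 1909 and 710 to 1493. The lines differed for 109 to 327 genes higher and 82 to 179 lower in sgXIST7 in normoxia, and for 94 to 490 and 102 to 483 in hypoxia.

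With no fold limit and an adjusted p-value under 0.05, 4411 genes rose and 4405 fell in sgXIST7, 4550 and 3708 in sgXIST9 and 3906 and 3765 in sgControl, while the lines differed for 780 and 546 genes in normoxia and 1316 and 1376 in hypoxia. In hypoxia 547 genes were lower in sgXIST7 at an adjusted p-value under 0.05 with the fold limit, and 167 were higher and 156 lower in a fit of those groups alone. No log2 difference printed for a gene changed sign under these settings. The cause of the other changes was not tested, beyond the fewer samples or looser limits of each setting.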
